A study of Mus musculus with 12 samples.

Results

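The genes described here encode 50 proteins of the lysosome: 11 cysteine proteases, 3 other proteases, 13 hydrolases of glycans, 8 proteins that break down or export lipids, 5 membrane proteins, 7 subunits of the proton pump and 3 regulators. They were chosen by symbol, from a list written with earlier results of the same data in view, and all 50 were found among the 37756 gene models of the deposited expression table. Whole mammary glands were profiled by RNA sequencing in mice that had nursed litters of 6 to 8 pups for 9 days, with 3 libraries in each of 4 groups. All were single parous C57BL/6 females that carried 1 Wap-Cre allele (Wap-Cre -/+), which drives the Cre recombinase from a milk protein promoter. JNK WT mice carried Wap-Cre alone. JNK KO mice also carried homozygous LoxP alleles of Mapk8 and Mapk9, the genes of the kinases JNK1 and JNK2. Glands of both genotypes were taken when the pups were removed (involution day 0) or 3 days later (involution day 3). Since Wap-Cre is active in the mammary epithelium, the stromal, immune and fat cells of a JNK KO gland keep both kinase genes, and their RNA is part of each library. In such tissue, fewer cells of a type and less RNA per cell cannot be told apart.

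Lysosomes are acidic organelles in which proteases, glycosidases and lipases break down proteins, glycans and lipids that arrive from outside the cell or from the cell itself. A proton pump, the V-ATPase, keeps the lumen acidic, and heavily glycosylated membrane proteins shield the membrane from the enzymes. When nursing stops, the milk-secreting epithelium of the mammary gland dies and is cleared, and cathepsins B and L released from leaky lysosomes are known to take part in that cell death downstream of STAT3. Macrophages and other phagocytes, which engulf dead cells, are also rich in lysosomes. The transcription factor TFEB and its relative TFE3 are known to bind an E-box with the letters CACGTG, often within TCACGTG, in promoters of many lysosomal genes.

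The values are FPKM (fragments mapped to a gene model, divided by its length and by the mapped fragments of the library), a level per length, and they were read in 2 ways. As deposited, the FPKM of nearly all genes stood higher on day 3: the median log2 difference from day 0 over the 14512 genes tested was 2.37 with JNK WT and 1.68 with JNK KO. On day 0 the FPKM of 11 milk genes summed to 727300 to 840100 of the 944500 to 1364000 in a library, and on day 3 to 36740 to 106400 in JNK WT glands and 229100 to 466100 in JNK KO glands. Median ratio scaling, which sets the median gene of every library to a common level, brought those medians to 0.06 and 0.04, so a scaled difference is one relative to the typical gene. A gene is called changed here at a limma p-value, adjusted over all genes tested, under 0.05. The libraries carry the numbers of the deposited columns: 1, 2 and 3 in both day 0 groups, 3, 6 and 12 in JNK WT on day 3, and 3, 4 and 6 in JNK KO on day 3. Values are given in that order.

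A pair of libraries stood apart. In JNK WT library 1 of day 0, 6 lysosomal genes stood above 2 times and 11 below 1/2 of both other libraries of the group after scaling, against at most 2 and 1 genes in any of the other 11 libraries. Its summed macrophage markers, at 182 scaled FPKM against 54.1 and 62.4, and adipocyte markers, at 1564 against 351 and 419, were also the highest of its group. The macrophage sum rested on Lyz2, at 102 against 25.8 and 14.3, and on C1qa, C1qb and C1qc. Other markers of that list went the other way: Csf1r, at 0.539 against 3.31 and 2.56, Mertk, Cd163 and Emr1 were lowest in library 1. Mapk8, the targeted gene, was at 1.95, 2.33 and 2.65 FPKM in JNK WT glands and at 0.986, 0.965 and 2.78 in JNK KO glands on day 0, so that the library labelled JNK KO 3 stood above all 3 JNK WT libraries. Mapk9 was at 2.48, 9.04 and 10.2 and 4.86, 4.33 and 8.78 in that order. Day 3 values of Mapk8 were 7.37, 6.57 and 7.90 in JNK WT glands against 1.25, 3.57 and 2.79 in JNK KO glands, with no overlap. These levels are over whole gene models, which also count exons that Cre leaves in place. Results that rest on either day 0 library are given with and without it.

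Of the 50 genes, 41 have a promoter window in the RefSeq table of GRCm38.p6, with 250 bases before and 50 after an annotated start. CACGTG, which reads the same on both strands, lies in a window of 15 of these 41 genes (36.6%), against 8.09% of all 27025 genes with a window. The longer TCACGTG, searched on both strands and always containing a CACGTG, lies in 13 of 41 (31.7%), against 4.29% of all genes. TGANTCA, the letters that AP-1 factors are known to bind, lies in 5 of 41 (12.2%) against 8.97%, namely Atp6v0a1, Glb1, Neu1, Psap and Tfe3. TTCNNNGAA, the letters known for STAT factors, lies in Arsa and Ctsc (4.88% against 9.55%). A match is a description of these letters only.

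The sites of Arsa, Atp6v1a, Ctsf, Glb1 and Naglu are not printed, although Glb1 fell in JNK KO and Arsa and Ctsf rose in JNK WT. The sites of 8 genes are shown as examples. Each is read 5′ to 3′ on the gene's own strand with 7 bases on either side, and the CACGTG is in capitals.
Ctsl: tagaagcCACGTGctgatct
Lgmn: tgtctgtCACGTGgtccatt
Ctsa: aaactgtCACGTGatgcaga
Ctsd: cgcgtctCACGTGacccgtt
Gaa: gtgcgatCACGTGtttgact
Gla: tctcggtCACGTGagcaact
Sgsh: tgccgtgCACGTGaccgtgg
Atp6v0d1: ctgcggtCACGTGagacgcg

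The site of Ctsl lies at chr13:64370744-64370763 and that of Lgmn at chr12:102439129-102439148, both on the minus strand. That of Ctsa lies at chr2:164833754-164833773 on the plus strand, that of Ctsd at chr7:142387913-142387932 on the minus strand and that of Gaa at chr11:119267816-119267835 on the plus strand. The Gla site lies at chrX:134601187-134601206, the Sgsh site at chr11:119355527-119355546 and the Atp6v0d1 site at chr8:105566055-105566074, all on the minus strand. Among the sites shown, the capitals begin farthest from the annotated start in Ctsl, 236 bases before it, and nearest in Atp6v0d1, 3 bases before it. Ctsd, Gla and Ctsa hold 1 more CACGTG each, which begins 245 bases before the start in Ctsd, 227 bases before it in Gla and after the start in Ctsa. All but Ctsl hold the longer TCACGTG on one strand or the other.

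Mcoln1 and Lamp1 also hold more than 1 site, and the 250 bases before their starts are shown whole, with each CACGTG in capitals. Mcoln1 encodes the lysosomal calcium channel mucolipin 1, and its stretch (chr8:3500269-3500518, plus strand) holds 2 sites. Lamp1 encodes a major glycoprotein of the lysosomal membrane, and its stretch (chr8:13158911-13159160, plus strand) holds 4 sites within the last 61 bases before the start.
Mcoln1: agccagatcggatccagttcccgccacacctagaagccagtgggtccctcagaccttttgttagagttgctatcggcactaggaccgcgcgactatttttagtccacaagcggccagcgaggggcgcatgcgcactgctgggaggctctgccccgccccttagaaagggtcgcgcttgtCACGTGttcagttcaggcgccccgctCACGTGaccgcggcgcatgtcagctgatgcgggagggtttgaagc
Lamp1: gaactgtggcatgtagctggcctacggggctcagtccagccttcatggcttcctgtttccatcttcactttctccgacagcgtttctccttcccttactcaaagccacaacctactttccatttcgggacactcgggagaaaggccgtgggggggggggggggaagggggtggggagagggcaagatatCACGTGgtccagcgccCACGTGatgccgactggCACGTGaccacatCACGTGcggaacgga

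After scaling, 23 of the 50 genes rose and 6 fell by day 3 in JNK WT glands, where 19.1% of all genes tested rose and 16.4% fell. In JNK KO glands 16 rose and 6 fell, where 11.3% of all genes rose and 9.87% fell. The median log2 difference of the 50 was 0.57 in JNK WT and 0.39 in JNK KO, beside 0.06 and 0.04 over all genes. The largest rises in JNK WT glands were those of the asparaginyl endopeptidase Lgmn (log2 difference 3.27), the hexosaminidase subunit Hexa (2.91), the tetraspanin Cd63 (2.58), cathepsin S (2.50) and the progranulin gene Grn (2.50). The largest falls were those of the acid ceramidase Asah1 (-1.73) and the cholesterol carrier Npc2 (-1.56).

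As deposited, all 50 genes rose in JNK WT glands, where 91.5% of all genes did and 1.34% fell. In JNK KO glands 43 rose and none fell, where 80% of all genes rose and 1.37% fell. The 6 that fell and 11 others not called in JNK WT glands after scaling had a positive difference as deposited and a negative one after scaling. Without JNK WT library 1 of day 0, 25 rose and 12 fell after scaling in JNK WT glands (23.3% and 23.1% of all genes), with 27 of the 29 calls kept. In JNK KO glands 21 then rose and 9 fell (19.9% and 20% of all genes), with all 22 kept. Without the library labelled JNK KO 3 of day 0, 9 genes rose (7.68% of all genes) and 5 fell (6.8% of all genes) in JNK KO glands, all 14 of them among the 22. Over all 12 libraries left out in turn, 21 of 29 calls in JNK WT and 11 of 22 in JNK KO held each time.

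**Figure D1:**
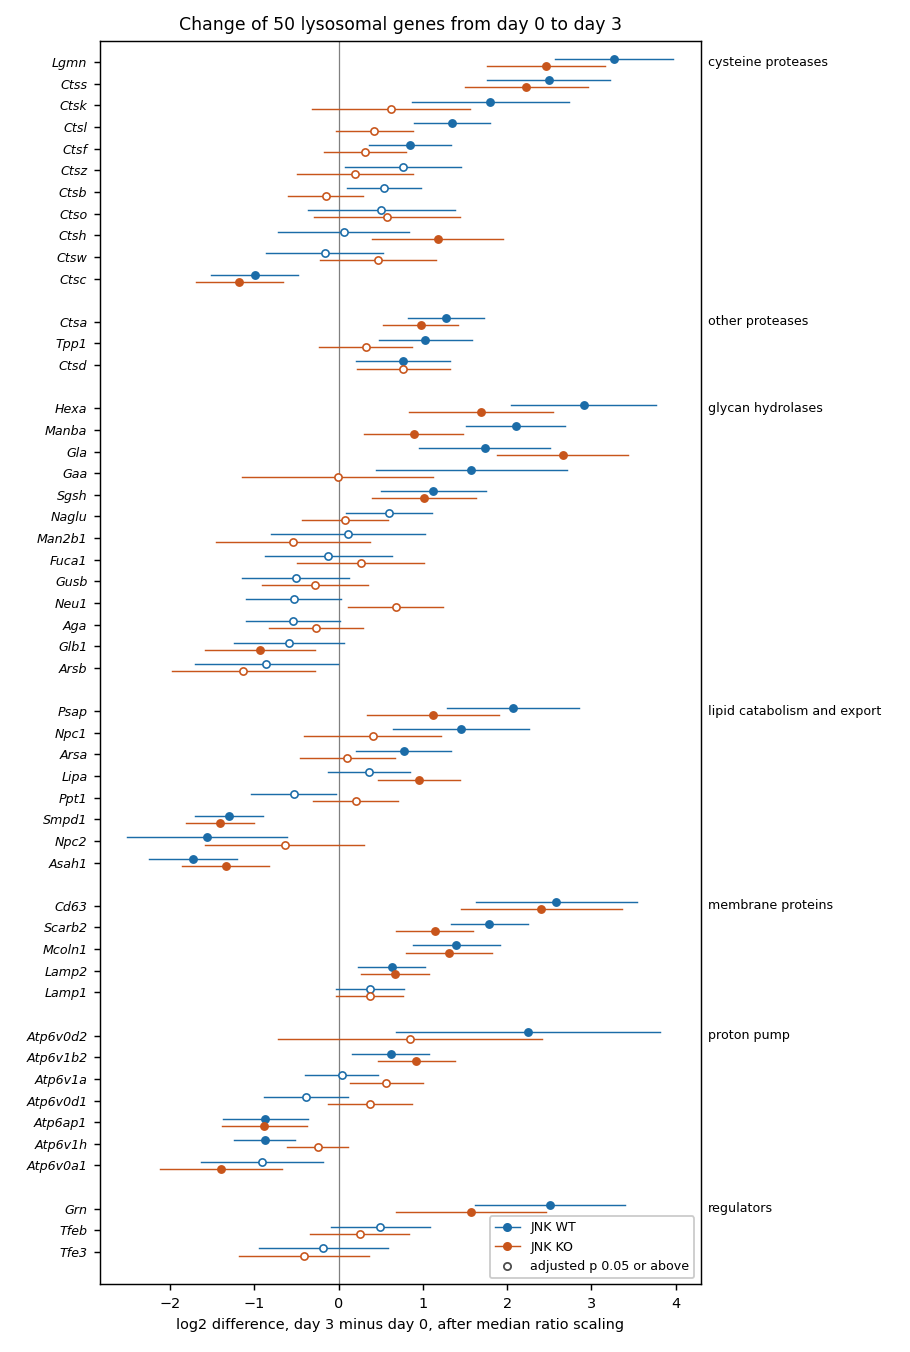
Log2 difference between day 3 and day 0 after median ratio scaling (x axis) for the 50 lysosomal genes (y axis, grouped by role), in JNK WT (blue) and JNK KO (orange) glands. Points are limma estimates from 3 libraries against 3, bars their 95% intervals, and filled points passed an adjusted p of 0.05. The membrane proteins all lie above 0 in both genotypes, and the lipid genes split, with Psap at 2.07 and Asah1 at -1.73 in JNK WT.

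Among the 11 cysteine proteases, 5 rose and 1 fell in JNK WT glands after scaling, against 3 and 1 in JNK KO glands. Lgmn activates other lysosomal proteases by cleavage. Its scaled FPKM were 7.84, 5.63 and 4.53 on day 0 and then 46.3, 47.8 and 85.3 on day 3 in JNK WT, and 8.92, 6.42 and 5.56 and then 27.7, 45.9 and 43.3 in JNK KO. The days did not overlap in either genotype, and the log2 difference was 3.27 (95% interval 2.57 to 3.97, adjusted p = 4.66e-05) in JNK WT and 2.46 (95% interval 1.76 to 3.16, adjusted p = 0.000429) in JNK KO. Ctss, the cathepsin of antigen-presenting cells, went from 28.5, 13.4 and 16.2 to 92.2, 94.3 and 129.9 in JNK WT and from 23.02, 15.6 and 13.2 to 58.8, 105 and 80.2 in JNK KO. Its groups did not overlap either, with log2 differences of 2.50 (95% interval 1.77 to 3.23, adjusted p = 0.000312) and 2.23 (95% interval 1.50 to 2.96, adjusted p = 0.000994). Ctsc, which activates the serine proteases of leukocyte granules, was the cysteine protease that fell. It stood at 71.2, 69.1 and 69.3 on day 0 and then 28.5, 33.8 and 44.4 on day 3 in JNK WT, and at 129.9, 123 and 79.5 and then 52.1, 45.8 and 45.9 in JNK KO. The differences were -0.996 (95% interval -1.51 to -0.48, adjusted p = 0.0076) and -1.18 (95% interval -1.69 to -0.66, adjusted p = 0.0051), with every day 3 library below every day 0 library.

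Ctsb and Ctsl encode cathepsins B and L, the proteases tied to epithelial cell death in this tissue. In GRCm38 the Ctsb model spans chr14:63122462-63177793 on the plus strand and runs past the annotated end of the gene, and the Ctsl model spans chr13:64363214-64370306 on the minus strand. Other models also run past the annotated bounds of their genes, among them those of Ctsa, Sgsh, Grn, Arsa, Ctsz, Ppt1, Npc1 and Atp6v1b2. The values of such models may include sequence outside the gene. Scaled Ctsb in JNK WT was 172, 148 and 141 on day 0 and then 191, 223 and 259 on day 3, a step up with no overlap that missed the threshold, with a log2 difference of 0.54 (95% interval 0.10 to 0.98, adjusted p = 0.0575). Without JNK WT library 1 of day 0 it passed, at 0.62 (adjusted p = 0.0116). In JNK KO, Ctsb was at 138, 124 and 139.9 on day 0 and 107, 123 and 131 on day 3, which overlap, with a difference of -0.15 (95% interval -0.60 to 0.29, adjusted p = 0.636). Ctsl in JNK WT was at 104, 80.9 and 78.8 on day 0 and then 203, 266 and 201 on day 3 and rose by 1.35 (95% interval 0.89 to 1.80, adjusted p = 0.000722). In JNK KO it was at 95.8, 83.1 and 91.1 and then at 109, 119 and 135, groups that lay side by side without overlap, with a difference of 0.42 (95% interval -0.03 to 0.88, adjusted p = 0.172). As deposited both genes rose in both genotypes: Ctsb went from 52.4, 72.6 and 81.9 to 461, 525 and 729 FPKM in JNK WT and from 74.7, 60.7 and 72.7 to 150.4, 238 and 272 in JNK KO. The log2 difference was 3.05 (adjusted p = 3.17e-06) with JNK WT and 1.63 (adjusted p = 0.000343) with JNK KO, where the medians over all genes were 2.37 and 1.68.

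Of the other cysteine proteases, Ctsk and Ctsf rose in JNK WT and Ctsh in JNK KO. Ctsk, the collagen-degrading protease of bone and stroma, rose by 1.80 (adjusted p = 0.00775) in JNK WT, with 6.77, 10.7 and 18.3 on day 3 after 4.84, 2.29 and 2.63 on day 0. Its difference in JNK KO was 0.62 (adjusted p = 0.332), with overlapping days. Ctsf rose by 0.85 (adjusted p = 0.0132) in JNK WT, a call that ended without JNK WT library 12 of day 3 (log2 difference 0.76), and was 0.31 (adjusted p = 0.354) in JNK KO. Ctsh, a protease with aminopeptidase activity, rose in JNK KO by 1.18 (adjusted p = 0.0372), a call that ended without any 1 of JNK KO 1, 2 and 3 of day 0, or JNK WT 3, 6 and 12 and JNK KO 3, 4 and 6 of day 3 (1.09 to 1.22 over 12 fits). In JNK WT its library 1 of day 0 stood at 112 beside 35.2 and 41.7, and its difference was 0.06 (adjusted p = 0.912) with that library and 0.57 (adjusted p = 0.00903) without it. Ctso depended on that library likewise, and went from 0.51 (adjusted p = 0.34) to 1.01 (adjusted p = 0.0148) without that library. Ctsz (log2 difference 0.76 in JNK WT) and Ctsw, a protease of cytotoxic lymphocytes (-0.17), were not called in either genotype. Ctsw was low, at 0.980, 1.13 and 1.73 FPKM as deposited on day 3 in JNK WT, and it passed the filter on low values by its day 3 libraries alone, as did Gla and Atp6v0d2, which are among the genes counted here as rising (Gla in both genotypes, Atp6v0d2 in JNK WT).

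Of the 3 other proteases, all rose in JNK WT glands and 1 rose in JNK KO glands after scaling. Ctsa encodes the protective protein that holds the sialidase and the beta-galactosidase together. Its scaled FPKM were 15.7, 21.6 and 23.6 on day 0 and then 44.9, 48.8 and 52.4 on day 3 in JNK WT, and 27.9, 24.2 and 20.1 and then 45.4, 44.4 and 51.3 in JNK KO. It rose by 1.28 (95% interval 0.83 to 1.73, adjusted p = 0.000937) and 0.97 (95% interval 0.52 to 1.42, adjusted p = 0.00692), with no overlap of days. Tpp1, which removes tripeptides from the ends of proteins, was at 4.96, 9.43 and 10.2 and then 15.4, 15.1 and 17.9 in JNK WT, where it rose by 1.03 (95% interval 0.48 to 1.58, adjusted p = 0.00936). In JNK KO it was at 12.2, 12.3 and 11.9 and then 14.1, 14.6 and 17.1, with a difference of 0.32 (95% interval -0.23 to 0.88, adjusted p = 0.399). Ctsd, the aspartic cathepsin D, was at 95.5, 101 and 110.2 on day 0 and then 157, 161 and 206 on day 3 in JNK WT, and at 147, 131 and 82.1 and then 230.0, 174 and 197 in JNK KO. It had almost the same difference in both genotypes, 0.76 (adjusted p = 0.0356) in JNK WT and 0.77 (adjusted p = 0.0507) in JNK KO, and lay on either side of the threshold. The call in JNK WT ended without any 1 of JNK WT 2 and 3 of day 0, or JNK WT 3, 6 and 12 and JNK KO 6 of day 3 (0.65 to 0.84 over 12 fits). The gene model of Ctsd is shared with Ifitm10, so its values cannot be assigned to 1 gene.

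The 13 glycan hydrolases split into genes that rose and genes that stood level or lower. In JNK WT glands 5 rose and none fell, and in JNK KO glands 4 rose and 1 fell. Hexa, which degrades gangliosides, was at 7.03, 2.75 and 2.84 on day 0 and then 23.7, 24.7 and 42.4 on day 3 in JNK WT, and at 5.76, 3.32 and 4.75 and then 10.7, 17.2 and 17.4 in JNK KO. It rose by 2.91 (95% interval 2.05 to 3.76, adjusted p = 0.000331) and 1.69 (95% interval 0.83 to 2.55, adjusted p = 0.011). Its call in JNK KO ended without JNK KO library 2 of day 0 (log2 difference 1.47). Manba, the beta-mannosidase, rose from 0.913, 1.26 and 0.850 to 3.80, 4.94 and 5.20 in JNK WT, by 2.10 (95% interval 1.52 to 2.69, adjusted p = 0.000237). In JNK KO it went from 1.50, 0.954 and 1.54 to 1.91, 2.66 and 3.09 and rose by 0.89 (95% interval 0.31 to 1.48, adjusted p = 0.0359), a call that ended without any 1 of JNK KO 1, 2 and 3 of day 0, or JNK WT 6 and JNK KO 4 and 6 of day 3 (0.68 to 1.08 over 12 fits).

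Gla, the alpha-galactosidase lost in Fabry disease, was scarcely present on day 0. Its scaled FPKM were 0.474, 0.361 and 0.384 and then 1.35, 1.26 and 2.30 in JNK WT, and 0.554, 0.173 and 0.203 and then 1.96, 2.71 and 2.26 in JNK KO. The log2 differences were 1.73 and 2.66. They are given as a description, since Gla passed the filter on low values by its day 3 libraries alone. Gaa, which degrades glycogen, stood at 2.53 in JNK WT library 1 of day 0 and at 12.8 and 14.98 in the other 2, and at 23.05, 21.8 and 26.6 on day 3. Its rise was 1.57 (95% interval 0.44 to 2.71, adjusted p = 0.0351) with library 1 and 0.77 (adjusted p = 0.00436) without it. Leaving out any 1 of the JNK WT libraries of day 3 ended the call with library 1 kept (1.50 to 1.64). In JNK KO glands Gaa was at 13.2, 13.6 and 12.96 and then 11.2, 12.5 and 16.2, overlapping values with a difference of -0.01 (95% interval -1.15 to 1.13, adjusted p = 0.993). Sgsh, a sulfatase of heparan sulfate breakdown, rose by 1.12 (adjusted p = 0.0106) in JNK WT and 1.01 (adjusted p = 0.0267) in JNK KO, a call that ended without any 1 of the 6 JNK KO libraries (0.97 to 1.07 over 12 fits).

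Glb1, the beta-galactosidase, was the glycan hydrolase that fell. In JNK KO it went from 7.74, 8.10 and 7.92 to 4.55, 3.48 and 4.37, a log2 difference of -0.93 (95% interval -1.58 to -0.28, adjusted p = 0.0457), a call that ended without any 1 of the 9 libraries other than the JNK WT libraries of day 0 (-1.0002 to -0.81 over 12 fits). In JNK WT it was at 3.82, 8.69 and 9.37 and then 4.22, 4.39 and 4.83, with a difference of -0.59 (adjusted p = 0.142) that became -0.998 (adjusted p = 0.000463) without library 1. Its gene model is shared with Tmppe. The sulfatase Arsb, the glucuronidase Gusb and the mannosidase Man2b1 showed the same dependence: without library 1 their JNK WT differences were -1.36 (adjusted p = 0.00181), -0.84 (adjusted p = 0.00722) and, for Man2b1, -0.51 (adjusted p = 0.0203), all falls, and with it they were -0.85, -0.51 and 0.11, none called. Naglu, Neu1, Fuca1 and Aga were not called in either genotype, with JNK WT differences from -0.54 (Aga) to 0.59 (Naglu).

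The 8 genes of lipid catabolism and export moved in opposite directions. In JNK WT glands 3 rose and 3 fell, and in JNK KO glands 2 rose and 2 fell. Psap, the precursor of the saposins that present sphingolipids to their hydrolases, was the highest of the 50 by mean FPKM over the 12 libraries. Its scaled FPKM were 61.3, 141 and 169 on day 0 and then 425, 419 and 611 on day 3 in JNK WT, and 184, 159 and 149 and then 302, 359.7 and 415 in JNK KO. It rose by 2.07 (95% interval 1.29 to 2.85, adjusted p = 0.00138) and 1.12 (95% interval 0.34 to 1.90, adjusted p = 0.0451), without overlap. The JNK KO call was close to the threshold and ended without any 1 of the 9 libraries other than the JNK WT libraries of day 0 (1.01 to 1.24 over 12 fits).

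Npc1, the membrane cholesterol transporter, rose in JNK WT from 0.903, 2.95 and 2.65 to 4.99, 5.02 and 6.47, by 1.45 (95% interval 0.64 to 2.26, adjusted p = 0.0111), and without library 1 by 0.94 (adjusted p = 0.00337). In JNK KO it was at 2.47, 2.77 and 2.79 and then 2.92, 3.51 and 4.43, a difference of 0.40 (adjusted p = 0.476). Npc2 binds cholesterol in the lumen and hands it to Npc1. It fell in JNK WT from 237, 58.2 and 67.3 to 30.9, 31.3 and 37.2, a log2 difference of -1.56 (95% interval -2.50 to -0.62, adjusted p = 0.0164), and library 1 was the highest by far. Without that library the fall was -0.92 (adjusted p = 0.00187), and without JNK WT library 3 of day 3 the call ended (-1.50). In JNK KO Npc2 was at 71.6, 77.8 and 59.3 and then 50.3, 45.4 and 38.1, days that did not overlap, with -0.64 (adjusted p = 0.323).

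Lipa, the acid lipase that frees cholesterol and fatty acids from lipoproteins, rose in JNK KO from 136, 112 and 94.6 to 249, 192 and 222, by 0.96 (95% interval 0.47 to 1.44, adjusted p = 0.011). Without the library labelled JNK KO 3 of day 0 its difference was 0.82 (adjusted p = 0.0526). In JNK WT its days overlapped, at 71.99, 98.7 and 81.98 and then 108, 119.7 and 95.1, with a difference of 0.36 (95% interval -0.13 to 0.84, adjusted p = 0.231). Asah1, which splits ceramide, fell in JNK WT from 80.2, 61.2 and 45.9 to 17.00, 18.7 and 19.3, a log2 difference of -1.73 (95% interval -2.25 to -1.21, adjusted p = 0.000383). In JNK KO it fell from 38.6, 47.5 and 59.3 to 21.2, 17.2 and 18.2, a log2 difference of -1.34 (95% interval -1.86 to -0.82, adjusted p = 0.00263). Smpd1, the acid sphingomyelinase that makes ceramide, also fell in both, from 17.1, 14.9 and 14.4 to 6.87, 6.11 and 5.75 in JNK WT and from 12.5, 14.96 and 15.02 to 6.31, 4.53 and 5.12 in JNK KO. These falls were -1.30 (95% interval -1.70 to -0.89, adjusted p = 0.00046) and -1.40 (95% interval -1.81 to -0.999, adjusted p = 0.000458), and no day 3 library reached the lowest day 0 library. Arsa, the arylsulfatase of sulfatide breakdown, rose in JNK WT by 0.77 (adjusted p = 0.0364), a call that ended without any 1 of JNK WT 1 and 2 and JNK KO 2 of day 0, or JNK WT 3 and 12 of day 3 (0.59 to 0.94 over 12 fits). Ppt1, which removes palmitate from proteins, was not called (-0.53 and 0.20).

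**Figure D2:**
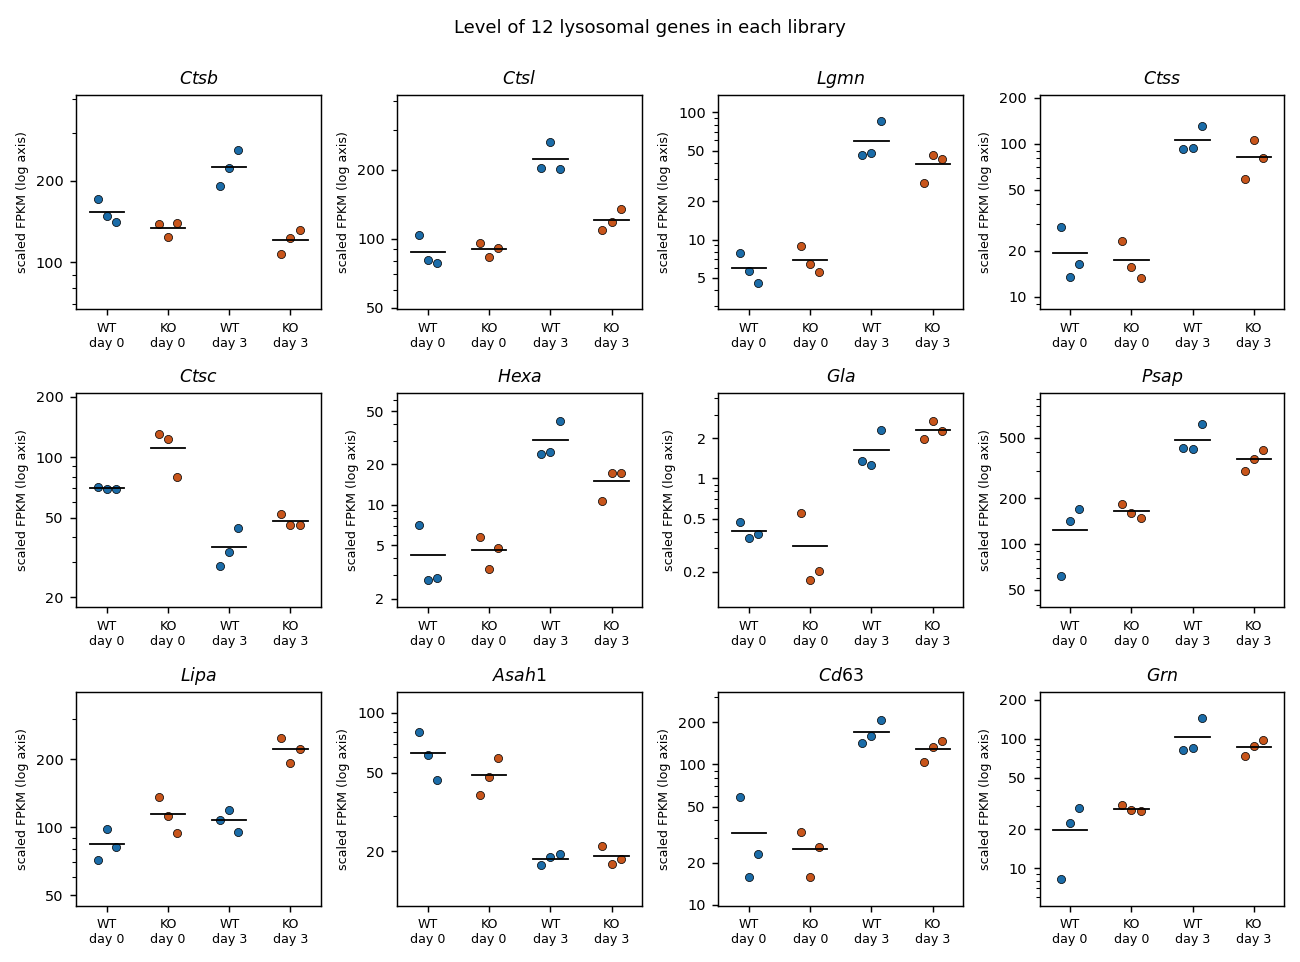
FPKM after median ratio scaling (log y axis) of 12 lysosomal genes in each library, by group (x axis: JNK WT in blue and JNK KO in orange, on days 0 and 3). Points are libraries, 3 per group, and bars their means. Ctsb and Ctsl on day 3 lie lower in all 3 JNK KO libraries than in all 3 JNK WT libraries and Lipa lies higher, while Asah1 is low on day 3 in both genotypes.

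Of the 5 membrane proteins, 4 rose in each genotype after scaling and none fell. Cd63, a tetraspanin of lysosomes and secreted vesicles, was at 58.6, 15.8 and 23.2 on day 0 and then 143, 158 and 207 on day 3 in JNK WT, and at 33.2, 15.8 and 25.6 and then 104, 133 and 146 in JNK KO. It rose by 2.58 (95% interval 1.63 to 3.54, adjusted p = 0.00125) and 2.41 (95% interval 1.45 to 3.36, adjusted p = 0.00297). Scarb2, the receptor that carries glucocerebrosidase to the lysosome, was at 7.15, 9.80 and 9.69 and then 30.2, 30.3 and 31.5 in JNK WT and 9.84, 8.71 and 9.59 and then 15.8, 24.4 and 23.2 in JNK KO. Its rises were 1.79 (95% interval 1.33 to 2.25, adjusted p = 0.000143) and 1.14 (95% interval 0.68 to 1.60, adjusted p = 0.00313). Mcoln1, whose 2 CACGTG sites are printed above, went from 5.73, 5.39 and 6.32 to 14.98, 14.2 and 17.3 in JNK WT and from 7.76, 5.92 and 7.96 to 12.5, 20.9 and 21.8 in JNK KO. It rose by 1.40 (95% interval 0.89 to 1.91, adjusted p = 0.00116) and 1.31 (95% interval 0.80 to 1.82, adjusted p = 0.00271). Lamp2, needed for fusion of autophagosomes with lysosomes, rose by 0.63 (adjusted p = 0.021) and 0.67 (adjusted p = 0.0243), calls of small size. The first ended without any 1 of JNK WT 3 of day 0, or JNK WT 6 and 12 of day 3 (0.59 to 0.68 over 12 fits), and the second without any 1 of JNK KO 1, 2 and 3 of day 0, or JNK KO 4 and 6 of day 3 (0.57 to 0.83 over 12 fits). Lamp1, with 4 sites, stood apart from the rest of the group, with 94.2, 105 and 91.1 and then 112, 132 and 133 in JNK WT and 113, 103 and 96.4 and then 142, 123 and 138 in JNK KO. Within each genotype all its day 3 libraries lay above its day 0 libraries, by 0.37 (95% interval -0.03 to 0.77, adjusted p = 0.131) and 0.37 (95% interval -0.03 to 0.77, adjusted p = 0.176), which did not pass the test.

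The 7 proton pump genes did not move as 1 group. In JNK WT glands 2 rose and 2 fell, and in JNK KO glands 1 rose and 2 fell. Atp6v1b2, a catalytic-sector subunit found in most tissues, went from 13.5, 13.5 and 13.9 to 20.6, 18.8 and 23.9 in JNK WT and from 19.8, 17.04 and 12.3 to 34.2, 26.6 and 31.4 in JNK KO. Its rises were 0.62 (95% interval 0.16 to 1.07, adjusted p = 0.0376) and 0.92 (95% interval 0.47 to 1.38, adjusted p = 0.00927), and the JNK WT call ended without any 1 of JNK WT 2 and 3 and JNK KO 2 of day 0, or JNK WT 3, 6 and 12 and JNK KO 6 of day 3 (0.53 to 0.70 over 12 fits). Atp6ap1, an accessory subunit needed for pump assembly, fell from 45.6, 74.9 and 77.4 to 33.7, 36.8 and 34.8 and from 69.7, 86.8 and 71.2 to 47.3, 36.5 and 39.9. These falls were -0.87 (95% interval -1.37 to -0.36, adjusted p = 0.0136) and -0.88 (95% interval -1.39 to -0.38, adjusted p = 0.0199), and the JNK KO call ended without any 1 of JNK KO 2 of day 0, or JNK KO 4 and 6 of day 3 (-0.98 to -0.79 over 12 fits).

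Atp6v1h, which couples the cytosolic sector to the membrane sector, fell in JNK WT from 22.1, 22.7 and 19.2 to 12.1, 11.6 and 11.01, a log2 difference of -0.87 (95% interval -1.24 to -0.51, adjusted p = 0.00237). In JNK KO its days overlapped, at 17.5, 20.1 and 17.4 and then 17.5, 14.6 and 14.4, with -0.24 (95% interval -0.61 to 0.12, adjusted p = 0.326). Atp6v0a1, a membrane subunit best known from neurons, fell in JNK KO from 19.97, 26.00 and 25.1 to 11.9, 7.01 and 8.50, a log2 difference of -1.39 (95% interval -2.11 to -0.67, adjusted p = 0.0124), a call that ended without either of JNK KO 2 of day 0, or JNK KO 4 of day 3 (-1.59 to -1.21 over 12 fits). In JNK WT it was at 10.3, 26.5 and 23.5 and then 9.79, 9.74 and 10.1, with -0.91 (adjusted p = 0.0512), and with -1.33 (adjusted p = 0.000725) without library 1. Atp6v0d2, a subunit of osteoclasts and macrophages, was the lowest of the 50 and is listed at 0 in 3 day 0 libraries. As deposited it was at 0, 0.00951 and 0.0118 FPKM on day 0 and then 0.830, 0.462 and 3.01 on day 3 in JNK WT, and at 0.249, 0 and 0 and then 0.123, 0.435 and 0.891 in JNK KO. It passed the filter on low values by its day 3 libraries alone, and the size of its fitted difference depends on the pseudocount. Its call in JNK WT after scaling ended without any 1 of the 3 JNK WT libraries of day 0, over the 9 fits in which it still passed the filter. The membrane-sector subunit Atp6v0d1 (-0.39 in JNK WT and 0.37 in JNK KO) and the catalytic subunit Atp6v1a (0.04 and 0.57) were not called.

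Among the 3 regulators, Grn rose and the transcription factors did not pass the test in the fit of all libraries. Grn, whose product progranulin is cut into peptides that support lysosomal enzymes, was at 8.25, 22.2 and 29.2 and then 81.3, 84.6 and 144 in JNK WT, and at 30.6, 28.2 and 27.5 and then 73.8, 87.3 and 98.2 in JNK KO. It rose by 2.50 (95% interval 1.61 to 3.39, adjusted p = 0.00098) and 1.58 (95% interval 0.69 to 2.46, adjusted p = 0.0186). The JNK KO call ended without any 1 of JNK KO 2 and 3 of day 0, or JNK KO 4 and 6 of day 3 (1.48 to 1.69 over 12 fits). Tfeb was at 4.17, 2.08 and 3.34 and then 5.41, 4.07 and 3.78 in JNK WT and at 2.35, 3.15 and 3.32 and then 3.22, 3.84 and 3.39 in JNK KO, with 0.49 (95% interval -0.09 to 1.08, adjusted p = 0.171) and 0.25 (95% interval -0.34 to 0.84, adjusted p = 0.552). Tfe3 was at 3.77, 10.8 and 10.1 and then 6.12, 5.65 and 8.19 in JNK WT, a difference of -0.18 (adjusted p = 0.721), and at 12.2, 10.6 and 10.1 and then 9.57, 7.10 and 8.16 in JNK KO, a difference of -0.41 (adjusted p = 0.444). Without library 1, Tfeb rose in JNK WT by 0.71 (adjusted p = 0.0349) and Tfe3 fell, at -0.66 (adjusted p = 0.0153). These are levels of mRNA, and the activity of both factors is known to be set largely by where the protein is in the cell.

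The genes were also counted by whether their promoter window holds CACGTG. Of the 15 with a site, 10 rose and none fell in JNK WT after scaling, where 19.1% of all genes rose and 16.4% fell, with a median log2 difference of 0.85 and a range from -0.59 to 3.27. Of the 26 with a window but no site, 10 rose and 4 fell, with a median of 0.43 and a range from -1.56 to 2.91. In JNK KO 5 of the 15 rose and 1 fell (median 0.42), and 9 of the 26 rose and 4 fell (median 0.29), where 11.3% of all genes rose and 9.87% fell. The rising genes with a site include Gla in both genotypes, which passed the filter on low values by its day 3 libraries alone. Of the 9 without a window, 3 rose and 2 fell in JNK WT, and Atp6v0d2, which passed the filter in the same way, is among those that rose. As deposited all 15 and all 26 rose in JNK WT, where 91.5% of all genes rose, and 14 and 21 rose in JNK KO, where 80% did. The difference between these sets was not tested.

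On day 0 no lysosomal gene was called between the genotypes, as deposited or after scaling, where 0.0138% of all genes tested were called on each scale. At an unadjusted p under 0.05, 3 of the 50 genes passed after scaling, where 6.46% of all genes did, and 1 of the 50 passed as deposited, where 3.1% did. Scaled differences of JNK KO from JNK WT ran from -0.75 to 0.74, with a median of 0.10. Among the most abundant genes, Ctsb was at 172, 148 and 141 in JNK WT libraries against 138, 124 and 139.9 in those of JNK KO, with -0.19 (95% interval -0.64 to 0.25, adjusted p = 0.693). The difference was 0.04 (95% interval -0.41 to 0.50, adjusted p = 0.935) for Ctsl and 0.53 (95% interval -0.25 to 1.31, adjusted p = 0.636) for Psap, and 0.19 (95% interval -0.36 to 0.74, adjusted p = 0.751) for Ctsd. Ctsc lay higher in all 3 JNK KO libraries, at 129.9, 123 and 79.5 against 71.2, 69.1 and 69.3, without passing the adjusted test, at 0.63 (adjusted p = 0.636). Without JNK WT library 1, and without the library labelled JNK KO 3, none was called either.

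On day 3 the levels of these genes were compared between the genotypes, which is not a test of whether their rise differs. As deposited, Ctsb, Ctsl, Ctsk and Hexa were lower in JNK KO glands and none of the 50 was higher, where 5.62% of all genes tested were lower and 0.544% higher. The median of the 50 was -0.60 and that of all genes -0.48. In 27 of the 50 the highest JNK KO library was below the lowest of JNK WT, as in 43.9% of all genes, and in 2 the lowest JNK KO library was above the highest of JNK WT, as in 2.81%. Ctsb was at 461, 525 and 729 FPKM in JNK WT against 150.4, 238 and 272 in JNK KO, a log2 difference of -1.39 (95% interval -2.02 to -0.77, adjusted p = 0.0231). Ctsl was at 491, 626 and 565 and 153, 229.6 and 279, a log2 difference of -1.38 (95% interval -1.95 to -0.82, adjusted p = 0.0189). In both genes the lowest JNK WT library lay above the highest JNK KO library. Hexa was at 57.4, 58.3 and 119 and 15.01, 33.1 and 35.9, a log2 difference of -1.49 (95% interval -2.36 to -0.61, adjusted p = 0.049). Ctsk was at 16.4, 25.2 and 51.3 and 4.62, 9.66 and 12.4, a log2 difference of -1.74 (95% interval -2.76 to -0.71, adjusted p = 0.0497), and JNK WT library 12 was the highest in both of these. Each of the 4 calls ended without JNK WT library 3, JNK WT library 6 or JNK KO library 3 of day 3. The call of Ctsl ended without any 1 of JNK WT 3 and 6 and JNK KO 3 of day 3 (-1.57 to -1.14 over 12 fits), and that of Ctsb without any 1 of JNK WT 3, 6 and 12 and JNK KO 3 and 4 of day 3 (-1.57 to -1.14 over 12 fits). The calls of Ctsk and Hexa were the least firm and also ended without day 0 libraries, which enter through the pooled spread: Ctsk without any 1 of JNK WT 2 and 3 and JNK KO 2 and 3 of day 0, or JNK WT 3, 6 and 12 and JNK KO 3 and 4 of day 3 (-2.12 to -1.30 over 12 fits), and Hexa without any 1 of JNK WT 2 and 3 and JNK KO 1, 2 and 3 of day 0, or JNK WT 3, 6 and 12 and JNK KO 3 and 4 of day 3 (-1.72 to -1.09 over 12 fits).

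After scaling, none of the 50 was called on day 3, where 0.338% of all genes tested were higher and 0.117% lower in JNK KO glands. At an unadjusted p under 0.05, 12 of the 50 passed, where 14.1% of all genes did, 6 of them lower (Ctsb, Ctsl, Ctsk, Manba, Hexa and Scarb2) and 6 higher (Lipa, Neu1, Atp6v0d1, Atp6v1a, Atp6v1b2 and Atp6v1h). The JNK KO libraries were all lower than the JNK WT libraries in 11 of the 50 and all higher in 10, as in 15.6% and 17.3% of all genes. Ctsb was at 191, 223 and 259 in JNK WT against 107, 123 and 131 in JNK KO, with -0.89 (95% interval -1.33 to -0.45, adjusted p = 0.0865), and Ctsl at 203, 266 and 201 and 109, 119 and 135, with -0.88 (95% interval -1.33 to -0.42, adjusted p = 0.0907). Neither gene overlapped between genotypes. Lipa was the highest in JNK KO relative to JNK WT, at 249, 192 and 222 against 108, 119.7 and 95.1, with 1.04 (95% interval 0.55 to 1.52, adjusted p = 0.0736). Neu1, the lysosomal sialidase, was at 31.5, 28.4 and 25.6 against 13.5, 17.3 and 14.3, with 0.92 (95% interval 0.36 to 1.48, adjusted p = 0.13), again without overlap. Scaled Hexa, at -0.98 (95% interval -1.84 to -0.13, adjusted p = 0.276), and Ctsk, at -1.23 (95% interval -2.16 to -0.30, adjusted p = 0.204), lay lower in each JNK KO library than in each JNK WT library.

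The day 3 result turned on JNK WT library 1 of day 0, which is in neither of the groups compared and enters through the spread pooled over the 4 groups. Without it 3 genes were lower and 2 higher in JNK KO after scaling, where 1.97% of all genes in that fit were lower and 3.3% higher: Ctsb -0.89 (adjusted p = 0.0146), Ctsl -0.88 (adjusted p = 0.0155) and Gaa -0.84 (adjusted p = 0.0188), and Neu1 0.92 (adjusted p = 0.0138) and Lipa 1.04 (adjusted p = 0.0155). As deposited, 12 genes were lower and none higher without it, where 17.8% of all genes were lower and 1.29% higher. The 12 were the 4 above and Manba, Gaa, Naglu, Npc1, Scarb2, Smpd1, Glb1 and Atp6v0a1. Gaa was at 23.05, 21.8 and 26.6 scaled FPKM in JNK WT on day 3 and at 11.2, 12.5 and 16.2 in JNK KO, with no overlap.

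By role, scaled day 3 differences of JNK KO from JNK WT had a median of -0.47 for the 11 cysteine proteases, -0.12 for the glycan hydrolases, -0.10 for the lipid genes, -0.01 for the membrane proteins, -0.05 for the other proteases, -0.22 for the regulators and 0.41 for the proton pump. Of the 7 pump genes, 5 lay above the median of all genes (0.01), and of the 11 cysteine proteases, 2 did. Atp6v0d1 was at 56.02, 50.1 and 52.2 in JNK KO and 33.3, 37.4 and 36.1 in JNK WT, with no overlap. Among the most abundant genes of each role, the intervals were 0.20 (95% interval -0.36 to 0.75, adjusted p = 0.85) for Ctsd, -0.05 (95% interval -0.50 to 0.40, adjusted p = 0.97) for Ctsa, -0.42 (95% interval -1.21 to 0.36, adjusted p = 0.715) for Psap and -0.40 (95% interval -1.36 to 0.55, adjusted p = 0.807) for Cd63. They were 0.10 (95% interval -0.30 to 0.50, adjusted p = 0.91) for Lamp1, 0.22 (95% interval -0.28 to 0.73, adjusted p = 0.789) for Atp6ap1 and 0.57 (95% interval 0.07 to 1.07, adjusted p = 0.28) for Atp6v0d1. For Grn and Tfe3 they were -0.22 (95% interval -1.11 to 0.67, adjusted p = 0.913) and 0.32 (95% interval -0.45 to 1.09, adjusted p = 0.81). The intervals of Cd63, Grn, Psap, Tfe3 and Atp6v0d1 reach past 1 log2 unit in one direction.

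**Figure D3:**
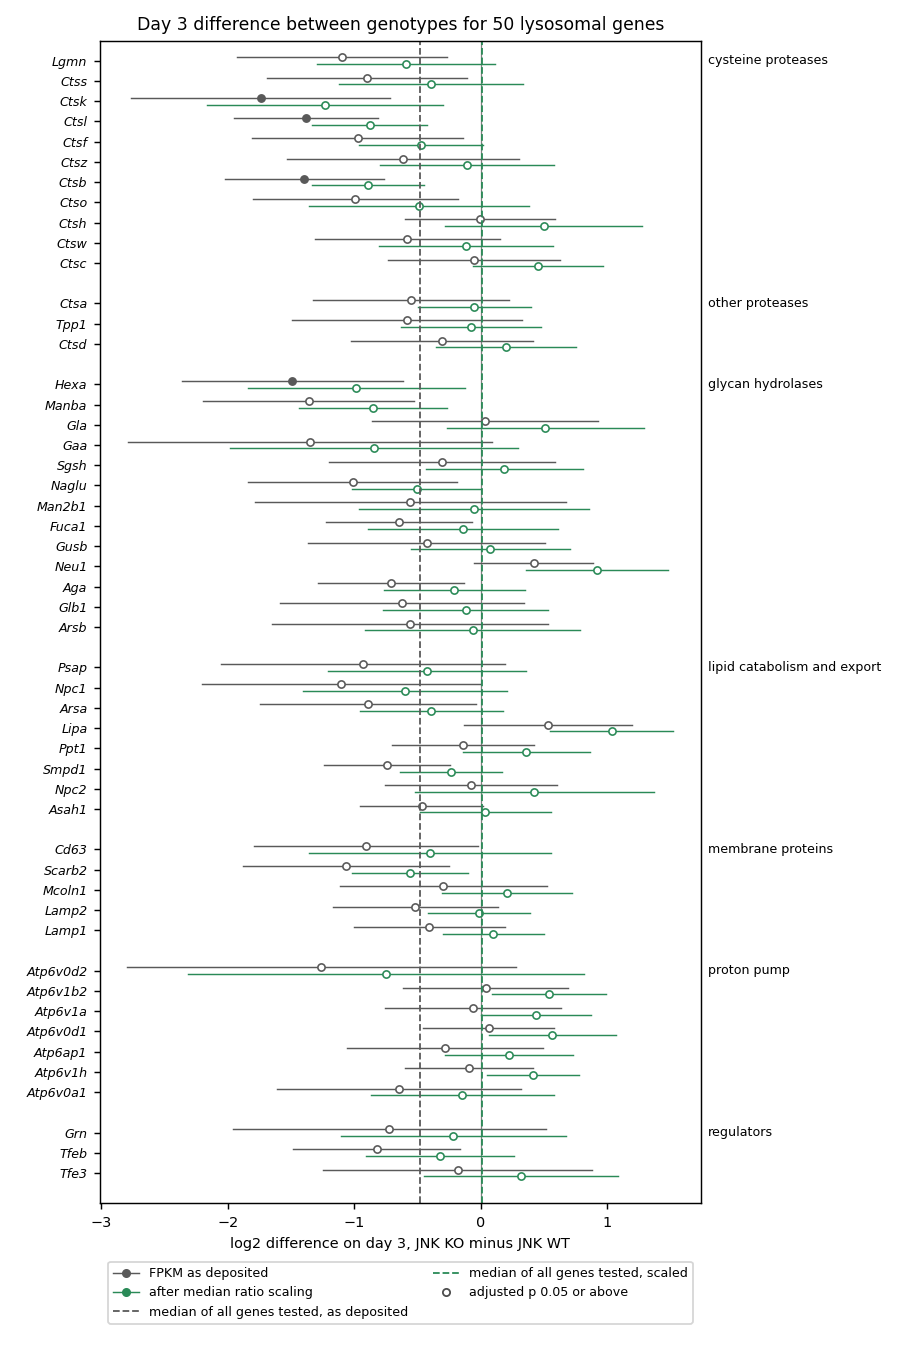
Log2 difference between JNK KO and JNK WT glands on day 3 (x axis) for the 50 lysosomal genes (y axis, grouped by role), as deposited (gray) and after median ratio scaling (green). Points are limma estimates from 3 libraries against 3, bars their 95% intervals, filled points passed an adjusted p of 0.05, and dashed lines mark the median of all genes tested, -0.48 and 0.01. The 4 filled points are Ctsb, Ctsl, Ctsk and Hexa as deposited, and no green point is filled.

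The change from day 0 to day 3 was also compared between genotypes directly, as the JNK KO difference minus the JNK WT difference. No lysosomal gene was called on either scale, where 0.0138% of all genes tested were on each. At an unadjusted p under 0.05, 10 of the 50 passed after scaling, where 13% of all genes did, and 16 passed as deposited, where 18.6% did. The smallest p-values were those of Neu1 at 1.21 (95% interval 0.41 to 2.003, adjusted p = 0.25), Manba at -1.21 (95% interval -2.04 to -0.38, adjusted p = 0.265) and Ctsl at -0.92 (95% interval -1.56 to -0.28, adjusted p = 0.27). For Ctsb the value was -0.69 (95% interval -1.32 to -0.07, adjusted p = 0.343) and for Lipa 0.60 (95% interval -0.09 to 1.29, adjusted p = 0.444). The 9 genes that rose in JNK WT alone (Arsa, Atp6v0d2, Ctsd, Ctsf, Ctsk, Ctsl, Gaa, Npc1 and Tpp1) and the 2 that rose in JNK KO alone (Ctsh and Lipa) are not shown to differ between genotypes in their change.

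Other lysosomal genes, from lists also written with earlier results known, also moved in both directions. For all counts of these lists after scaling, 19.1% of all genes tested rose and 16.4% fell in JNK WT. In JNK KO 11.3% rose and 9.87% fell. Of 27 further hydrolases tested, 10 rose and 4 fell in JNK WT glands after scaling, against 5 and 3 in JNK KO glands. Gm2a, the activator that Hexa needs to degrade its ganglioside, fell to 23.6, 20.5 and 19.9 scaled FPKM from 178, 139 and 195 in JNK WT. Its log2 difference was -2.99 (adjusted p = 7.76e-05) there and -3.12 (adjusted p = 9.65e-05) in JNK KO. Of 23 further membrane proteins 4 rose and 3 fell in JNK WT, and 4 rose and 1 fell in JNK KO. The rises in JNK WT were led by Cd68 (3.44, adjusted p = 3.77e-05) and the metal transporter Slc11a1 (3.24, adjusted p = 0.000187), both best known from macrophages, and the falls by Slc11a2 (-1.35, adjusted p = 0.00316) and Tmem192 (-1.33, adjusted p = 0.0141). As deposited, 26 of these 27 hydrolases and 22 of the 23 membrane proteins rose in JNK WT and none fell, where 91.5% of all genes rose and 1.34% fell. None of them was called on day 3 between genotypes after scaling. As deposited 2 hydrolases and 2 membrane proteins (Laptm4b and Mfsd8) were lower in JNK KO, where 5.62% of all genes were lower.

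Of 15 further pump subunits 3 rose and 3 fell in JNK WT after scaling, and 2 rose and 1 fell in JNK KO. In JNK WT, Atp6v1b1 (3.45) and Atp6v0e2 (2.26) were highest and Atp6ap2 (-1.25, adjusted p = 0.0005) and Atp6v0a2 (-0.89, adjusted p = 0.0211) lowest. Atp6v1b1 had day 0 means of 0.187 and 0.172 FPKM as deposited in JNK WT and JNK KO. It is counted here as rising but passed the filter by its day 3 libraries alone, so its difference is a description. Atp6v0e2, also counted as rising, passed the filter through its JNK WT libraries of day 3, with a mean of 3.81 FPKM as deposited. Its means were 0.0893 in JNK WT and 0.329 in JNK KO on day 0 and 0.364 in JNK KO on day 3. The rise of Atp6v0e2 is thus a description too. Atp6v1c2, a subunit of epithelia, was the 1 gene of the lists of further hydrolases, membrane proteins, pump subunits, sorting genes, biogenesis genes and cathepsin inhibitors that was called on day 3 after scaling. As deposited it was lower in JNK KO too, as were Atp6v0e2, the biogenesis gene Rragd and the cathepsin inhibitor Cst3, where 5.62% of all genes were lower. Of these, Atp6v0e2 passed the filter through the JNK WT libraries of day 3, a group of this comparison, so its difference is a description. All 15 pump subunits, 9 sorting genes and 15 biogenesis genes rose in JNK WT as deposited, where 91.5% of all genes rose. Scaled Atp6v1c2 was at 2.21, 2.25 and 1.40 in JNK KO and 4.37, 6.35 and 5.18 in JNK WT, a log2 difference of -1.41 (95% interval -1.91 to -0.90, adjusted p = 0.029), without overlap. Of 9 genes that sort hydrolases to the lysosome, Nagpa (0.81, adjusted p = 0.0118) and Gga2 (0.59, adjusted p = 0.04) rose and Gnptg (-1.04, adjusted p = 0.0206) fell in JNK WT, and Nagpa rose in JNK KO. Of 15 genes of lysosome biogenesis and nutrient sensing, Tfec, a relative of Tfeb, rose (1.47) and Rraga (-1.07, adjusted p = 0.00116) and Lamtor2 (-1.06, adjusted p = 0.0172) fell in JNK WT, and 1 rose and 2 fell in JNK KO. Tfec had day 0 means of 0.0365 and 0.0382 FPKM as deposited in JNK WT and JNK KO. It also passed the filter by its day 3 libraries alone, so its difference is a description.

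Of 6 cathepsin inhibitors tested, Serpinb1a rose (1.17) and Serpina3g, which encodes the inhibitor Spi2A, fell in JNK WT, and 1 rose and 1 fell in JNK KO. Serpinb1a had day 0 means of 0.208 and 0.184 FPKM as deposited in JNK WT and JNK KO. It passed the filter by its day 3 libraries alone, so its difference is a description. Serpina3g was at 66.7, 14.6 and 13.6 scaled FPKM on day 0 and then 0.937, 0.552 and 1.02 on day 3 in JNK WT, and at 68.7, 14.7 and 7.73 and then 0.535, 0.743 and 1.15 in JNK KO. It fell, with log2 differences of -4.71 (95% interval -6.39 to -3.02, adjusted p = 0.00104) and -4.51 (95% interval -6.20 to -2.82, adjusted p = 0.00215), and on day 3 the genotypes differed by -0.06 (95% interval -1.74 to 1.63, adjusted p = 0.993). As deposited its log2 differences were -2.31 (adjusted p = 0.00876) and -2.81 (adjusted p = 0.00368).

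The levels of cell type markers changed between the same groups. The summed scaled FPKM of the 50 genes were 1455 to 1659 in JNK WT and 1411 to 1721 in JNK KO on day 0, and 2209 to 2880 and 2175 to 2385 on day 3. The sum over 11 macrophage markers went from 54.1 to 182 in JNK WT and 58.5 to 91.5 in JNK KO on day 0 to 318 to 658 and 218 to 375 on day 3. Of the 11, 10 rose in JNK WT (19.1% of all genes) and 9 in JNK KO (11.3% of all genes). Between genotypes on day 3 none was called, where 0.338% of all genes were higher and 0.117% lower. Fcgr1, among the 11, had day 0 means of 0.205 and 0.164 FPKM as deposited in JNK WT and JNK KO. It passed the filter on low values by its day 3 libraries alone. None of the 11 was at 0 in any library, and JNK WT library 12, the highest in Lgmn, Hexa, Ctsk, Cd63 and Psap, was also the highest in that sum, at 658 against 318 and 382. That library was likewise the highest of its group in fibroblast markers (609 against 229 and 286) and adipocyte markers (2612 against 2104 and 1432). It was the lowest in skeletal muscle markers (141 against 2611 and 2722). The sum over 7 luminal epithelial markers was 609.5 to 817 on day 0, and 438 to 540.5 in JNK WT and 571 to 995 in JNK KO on day 3. On day 3, 3 of the 7 passed an unadjusted p under 0.05 between genotypes, as did 14.1% of all genes, and none was called. On day 0 that sum rested on Elf5, with a mean of 504 on day 0 and 108 on day 3 in JNK WT. On day 3 Epcam (100.5), Krt19 (95.8) and Krt18 (84.8) had means near that of Elf5 in JNK WT. In JNK KO on day 3 the means were 275 for Elf5, 166 for Krt19, 127 for Krt18 and 95.3 for Epcam. Elf5 was the marker of the 7 that fell in JNK WT, while 4 rose, where 16.4% of all genes fell and 19.1% rose. In JNK KO 4 rose and none fell, where 11.3% of all genes rose and 9.87% fell. Of 8 neutrophil markers, Ly6g was at 0 in all 12 libraries and the sum rested on S100a8, at 83.3, 192 and 119.9 in JNK KO and 7.09, 9.03 and 5.66 in JNK WT on day 3. On that day 6 adipocyte markers summed to 719 to 1701 in JNK KO and 1432 to 2612 in JNK WT, 6 fibroblast markers to 223.5 to 327 and 229 to 609, and 4 skeletal muscle markers to 0.787 to 47.4 and 141 to 2722. Of 8 markers of cytotoxic lymphocytes, which express Ctsw, the sum was at most 4.87 in any library. The part of these cell types in the changes of the lysosomal genes was not tested.

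**Figure D4:**
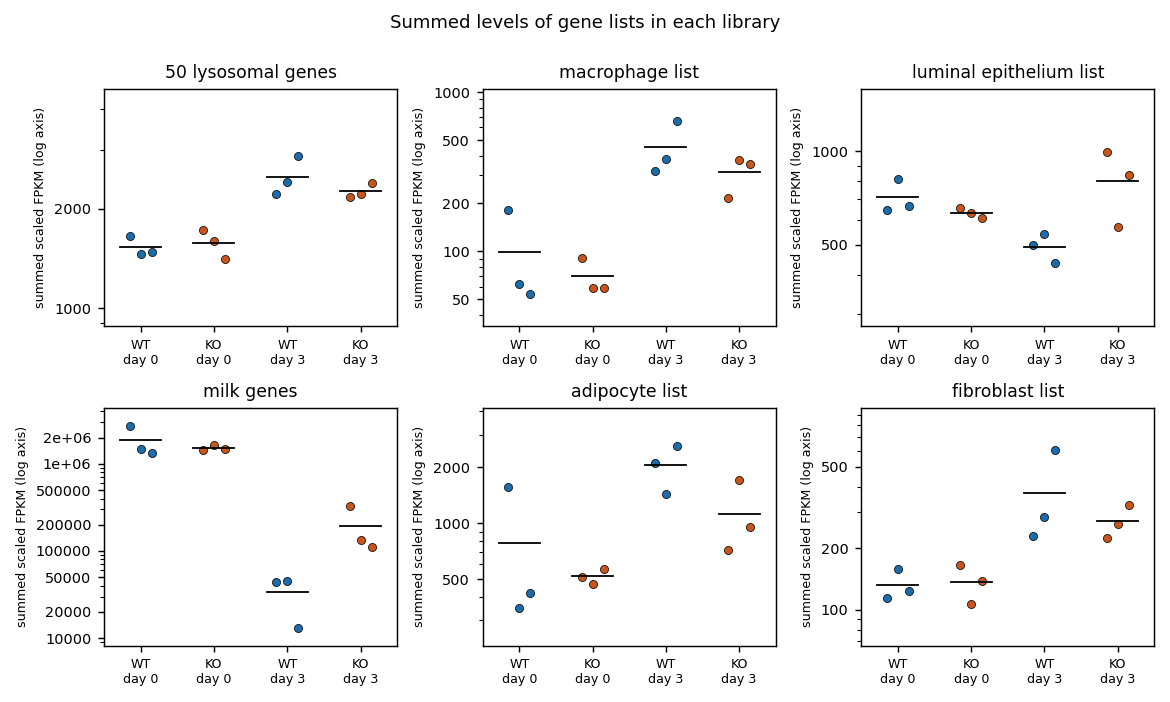
Summed scaled FPKM (log y axis) of the 50 lysosomal genes and of 5 marker lists in each library, by group (x axis: JNK WT in blue and JNK KO in orange, on days 0 and 3). Points are libraries, 3 per group, and bars their means. The sums of the lysosomal genes and of the macrophage list are higher in all day 3 libraries than in all day 0 libraries, and the milk genes are lower on day 3, when they are higher in JNK KO than in JNK WT libraries.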

How the data were processed

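Whole mammary glands of 12 mice were profiled by RNA sequencing, 3 in each of 4 groups, and groups were taken from the labels. Per the labels and the study's methods, the authors trimmed the reads, aligned them with Bowtie2 and TopHat2 (version 2.0.14) to GRCm38 and deposited 1 table of FPKM per library, made with Cufflinks (version 2.2.1). The library normalization of Cuffdiff is given as classic-fpkm, a setting with no scaling between libraries. The table also holds fold changes and p-values of 1 Cuffdiff comparison, which were not used. FPKM give no depth, so no counting error could be set. Of 37756 gene models, 2 without a value were left out, 466 bear several symbols and 24 symbols had become dates.

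Here log2(FPKM + 0.1) was tested for genes of at least 0.5 FPKM in at least 3 libraries (14512 genes) with limma (version 3.58.1, R 4.3.3), using a mean-variance trend, 1 fit of the 4 group means and two-sided p-values with Benjamini-Hochberg adjustment over all genes. A fold change on this scale understates that of genes near 0. The same fit was run on the deposited values and after division by a median ratio factor per library, computed against the geometric mean of 13505 genes. The code was checked on simulated data. All 50 genes passed the filter. The genes, lists and tests were chosen with earlier results of these data known. Values per library are given for Ctsb and Ctsl, for the 2 genes of each role and direction with the largest scaled change past the threshold, and otherwise for the 2 of each role with the highest mean FPKM. Ctsc and Gaa between genotypes, genes whose call turned on a library, and the named genes of other lists called on day 3, were added after their values were seen. Of the other lists, up to 2 genes per direction are named, except that the leading rises of the further hydrolases are not reported here. Galns, Csta1 and Acta1 were not analysed here. Promoters and their coordinates are from RefSeq, GRCm38.p6. Alternatives were other pseudocounts, filters, scalings, weights and fits, and each library left out.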

Additional observations from a re-analysis of the deposited data

How the results depend on the processing

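Counts of lysosomal genes called differed between scalings. From as deposited to median ratio scaling they went from 50 to 29 in JNK WT and from 43 to 22 in JNK KO over time, and from 4 to 0 between genotypes on day 3. The direction of a called gene turned in 25 cases: in JNK WT to -0.87 for Atp6v1h, -0.91 for Atp6v0a1, -1.56 for Npc2, -0.85 for Arsb, -0.53 for Neu1, -0.17 for Ctsw, -0.53 for Ppt1, -0.12 for Fuca1, -0.51 for Gusb, -0.996 for Ctsc, -1.30 for Smpd1, -0.54 for Aga, -1.73 for Asah1, -0.39 for Atp6v0d1, -0.59 for Glb1, -0.18 for Tfe3 and -0.87 for Atp6ap1, and in JNK KO to -0.24 for Atp6v1h, -0.010 for Gaa, -0.64 for Npc2, -0.15 for Ctsb, -0.28 for Gusb, -0.27 for Aga, -0.41 for Tfe3 and -0.88 for Atp6ap1.

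As deposited, the day 3 count of 4 was 10 with a pseudocount of 1, 2 with a pseudocount of 0.01, 2 with no filter, 2 with the stricter filter, 2 with no mean-variance trend, 20 with weights per library and 0 to 12 with a library left out. The interaction count of 0 was 1 with a pseudocount of 1. After scaling, the JNK KO count of 22 was 37 with weights per library and 12 to 30 with a library left out. The JNK WT count of 29 was 19 with only the groups compared in the fit and 22 to 37 with a library left out. The day 3 count of 0 was 19 with weights per library, 2 with only the groups compared, 3 with quantile normalization and 0 to 5 with a library left out, and the interaction count of 0 was 1 with weights per library. For these counts the cause was not tested. The highest counts with a library left out came without JNK WT library 1 of day 0, and their shares of all genes are given above. The other counts stand without the share of all genes called in the same fit. They describe the processing and are not a result about the lysosomal genes. The day 0 counts were 0 under every alternative run. No paired analysis was possible because the deposited columns carry no replicate number that the labels tie across groups. With 3 libraries a group and no depth, differences within the printed intervals could not be resolved, and values under 0.5 FPKM, as in Atp6v0d2, are the least certain.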
